A study of Mus musculus with 18 samples.

Results

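Transcripts of 9 genes that act in lipoprotein clearance were followed in mouse liver: Vldlr, Lrp1, Lrpap1, Lsr, Lipc, Lpl, Scarb1, Abca1 and Sort1. They were taken by symbol, as every non-control probe that the array annotation assigns to 1 of these 9 genes. This gave 14 probes of 39429 non-control probes, and 9 of 31709 names in the annotation, unnamed transcripts included. Of the 14 probes, 12, from 8 genes, passed the filter on dim and marked spots and were tested. Every probe of these genes was included whatever its signal, but the genes themselves were chosen with earlier results of these data known.

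Liver RNA came from 18 male mice of the inbred strain C57BL/6J and was hybridised to 1-colour arrays that carry probes of 60 bases. Mice of both groups were 8 weeks old at the start, were allotted at random to a diet for 5 weeks, and were 13 weeks old at the end. Both diets drew 51.1% of their energy from fat, 16.7% from protein and 32.1% from carbohydrate, so that no low-fat control group was part of the comparison. In the linseed oil group (LINdiet, 8 mice), 66.7% of the fatty acids were polyunsaturated (49.7% alpha-linolenic acid), 22.5% monounsaturated and 9.7% saturated. In the palm oil group (PALMdiet, 10 mice), 55.6% were saturated, 34.8% monounsaturated and 8.8% polyunsaturated. The comparison asks how these genes differ in the liver between an oil whose main fatty acid is of the n-3 type and an oil high in saturated fat. The mice shared cages, and which mice shared one was not analysed here.

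Triglyceride-rich lipoproteins lose their triglyceride to lipases on the vessel wall, and the remnants are taken up by the liver through receptors of the LDL receptor family and through heparan sulphate on the cell surface. HDL gives cholesterol back to the liver through the receptor SR-BI, and forms when ABCA1 passes cholesterol and phospholipid out of cells. The VLDL receptor binds triglyceride-rich particles, is best known from heart, muscle and fat, and is kept low in the normal liver.

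Vldlr, the VLDL receptor gene, was higher on linseed oil by 2.55-fold. That size depended on the background treatment, with log2 differences from 0.49 to 1.35. Vldlr was the only called gene among the members: 1 of 12 tested probes passed, against 0.753% of all tested probes. The other 11 tested probes, from 7 genes, did not pass. Both probes of Scarb1, the gene of SR-BI, had lower means on linseed oil by 0.26 and 0.29 on the log2 scale without passing. Lpl, the gene of lipoprotein lipase, showed no called difference in its mean but ranged more widely among linseed mice than among palm mice. Values are log2 signals relative to the 75th percentile of each array, so that 0 is the level of that percentile. Diet differences are taken between mice for 1 probe, never between probes. Only the summed levels of marker lists, and the choice of a gene's brightest probe, set the signals of different probes beside each other. A called probe is one with a Benjamini-Hochberg adjusted p under 0.05 in the limma fit over all 19510 tested probes.

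The 75th percentile of the arrays lay between 117 and 204 intensity units, and 17258 to 22445 probes were well above background. Arrays fell into 5 groups by slide barcode, each with mice of both diets and each from 1 scan; the headers of 3 arrays hold no barcode, and these were taken as slide 1 because they share a scan. Probes well above background numbered 20108 to 22445 on slides 2 and 3, and 17258 to 20279 on slides 1, 4 and 5. Over all probes, 147 were called, 115 higher on linseed oil (0.589%) and 32 lower (0.164%). All 10 hepatocyte markers of a fixed list (Alb and Ttr among them) were above background, and of the 6 that could be tested none was called in the limma fit or had an unadjusted p under 0.05. The array of linseed mouse 6 stood apart in skeletal muscle genes: the summed level of 7 muscle markers was 54.9 times the 75th percentile there, against 0.057 to 1.22 in the other linseed mice and 0.087 to 1.30 in palm mice. Adipoq, which adipocytes express, was well above background in linseed mice 3, 4 and 6 and palm mouse 10. In bulk tissue, fewer cells of a type and less RNA per cell cannot be told apart.

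Probe sequences are shown for Vldlr, where the difference was read by 1 of 2 probes, and for Lpl, where both probes read the same spread among mice. Each line is the first 30 of the 60 bases of a probe, 5′ to 3′, as the array annotation gives it, with nothing marked by capitals.
Vldlr A_55_P2030524: ctttttcaatggttgggacaatggcaatag
Vldlr A_55_P2174836: acagtgagacaaaagatatcaacacaacag
Lpl A_51_P259296: gaacaccaacccacatgcaaaaccccacaa
Lpl A_52_P257812: cgaggtttccacaaataaaacctactcctt
In mm9 coordinates from the array annotation, the Vldlr probes lie at chr19:27324050-27324109 and chr19:27321104-27321163, and the Lpl probes at chr8:71430267-71430326 and chr8:71425050-71425109. The annotation lists the first Vldlr probe for 2 transcripts of the gene and the second for 1 of them. Exon, intron and UTR positions of the probes were not analysed here.

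Vldlr was measured above background by the first of these probes on all 18 arrays. Linseed mice ranged from -1.59 to -0.78 with a median of -1.17, and palm mice from -3.44 to -1.72 with a median of -2.54. All 8 linseed mice lay above the highest palm mouse, so the groups did not overlap; among all tested probes 0.2% were without overlap in either direction and 0.149% without overlap and higher on linseed oil. The means were -1.15 ± 0.30 (SD, n = 8) and -2.50 ± 0.54 (SD, n = 10), a difference of 1.35 ± 0.20 (SE; 95% interval 0.93 to 1.77; limma adjusted p = 0.00232). By p-value this was rank 14 of the tested probes.

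The Vldlr signal was dim, which bears on the size of its fold. Before background subtraction the spot read 78.1 to 141 intensity units in linseed mice and 56.3 to 94.0 in palm mice, over a local background of 23 to 35. After subtraction by the image software the ranges were 42.7 to 111 and 17.2 to 54.3. With the normexp background model and an offset of 50 the difference was 0.49 ± 0.11 (limma adjusted p = 0.04996, just under the threshold). In the authors' deposited table, which holds values on a log2 scale, the mean levels were 6.77 and 6.07, and a limma fit to those values gave a difference of 0.70 ± 0.11 (adjusted p = 0.0023). The direction was the same under every background treatment tried, while the difference on the log2 scale ran from 0.49 to 1.35.

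Within slides, the linseed mean of Vldlr exceeded the palm mean on 5 of 5 slides, by 1.42, 1.26, 0.97, 1.19 and 2.08 on slides 1 to 5, of which slide 1 was inferred from the scan. Without slide 1 it was 1.33 (limma adjusted p = 0.0038). With slide as a block the difference was 1.33 ± 0.21 (limma adjusted p = 0.00864). Leaving out any 1 of the 18 arrays kept the call, with differences from 1.25 to 1.44. Without the 4 arrays with Adipoq above background it was 1.39 ± 0.24 (limma adjusted p = 0.0215). Without linseed mouse 6, the array with the muscle genes, it was 1.30 (limma adjusted p = 0.0053). Among the settings tried, the call was lost only when slides 4 and 5 were both left out, where the difference was 1.20 ± 0.28 (limma adjusted p = 0.160).

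**Figure D1:**
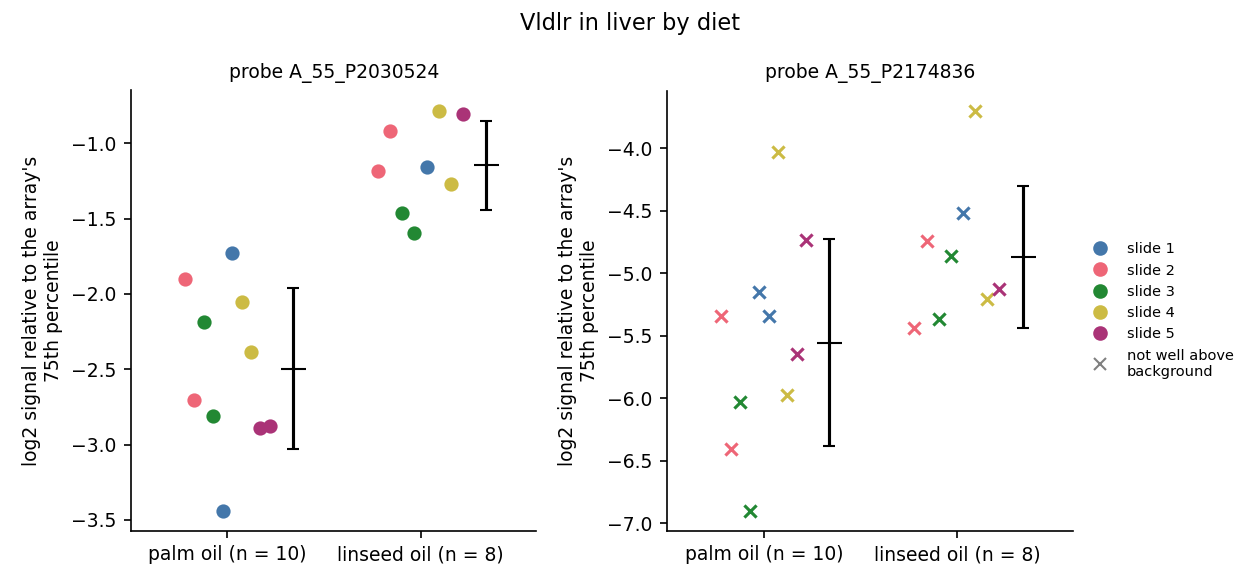
Vldlr signal of each mouse for both probes, by diet, on a log2 axis relative to the array's 75th percentile (points coloured by slide, crosses where not well above background, bars for mean ± SD). For A_55_P2030524 all linseed mice (-1.59 to -0.78) lie above all palm mice (-3.44 to -1.72); A_55_P2174836 was not well above background on any array.

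The second Vldlr probe, listed for 1 transcript, was not well above background on any of the 18 arrays. Its values ranged from -5.44 to -3.70 (median -4.99) in linseed mice and from -6.90 to -4.03 (median -5.49) in palm mice. The groups overlapped, and its spot read 34.8 to 48.6 and 32.5 to 46.0 intensity units before subtraction. These values lie in the range where the array gives only a bound, so the probe has no fold and no test. The difference in Vldlr therefore rests on 1 probe.

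**Figure D2:**
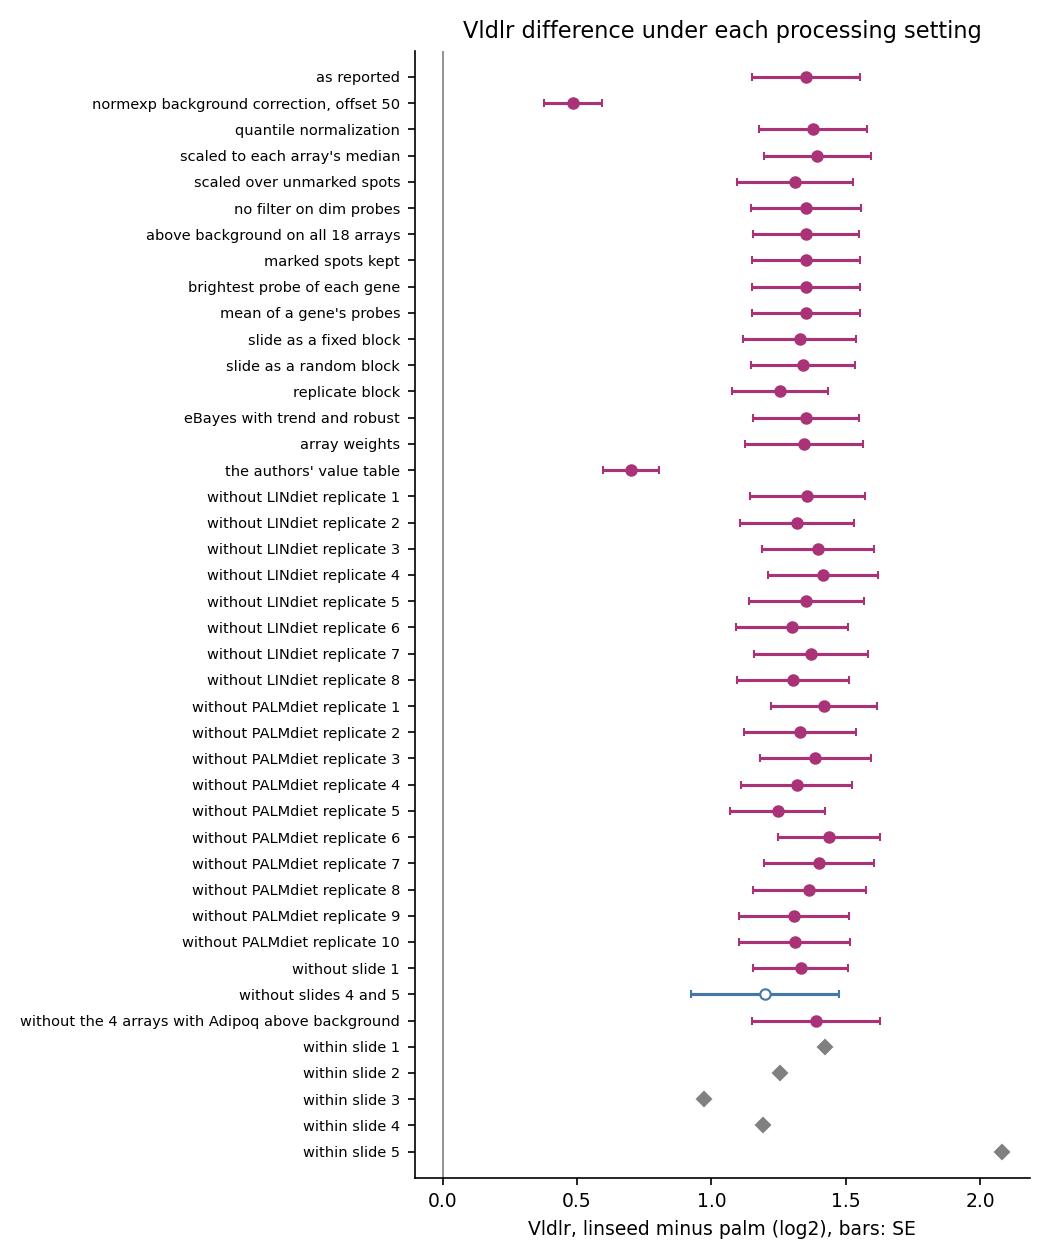
Difference in Vldlr (A_55_P2030524), linseed minus palm on a log2 axis with SE bars, under each processing setting (open circle not called, diamonds within-slide differences with no test). Tested settings lie between 0.49 with normexp and 1.44 with 1 array left out, all above 0, and 1.20 without slides 4 and 5 is the one not called.

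Of the other uptake receptors and their chaperone, none was called. Lrp1 encodes a large endocytic receptor that takes up remnants in hepatocytes; its probe lies at chr10:126975573-126975632. Linseed mice ranged from 3.23 to 3.77 (median 3.44) and palm mice from 3.24 to 3.88 (median 3.48). The groups overlapped over nearly their whole range, and the difference was -0.035 ± 0.10 (SE; 95% interval -0.24 to 0.17; limma adjusted p = 0.942).

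Lrpap1 encodes the chaperone that keeps receptors of this family from binding ligands while they are still in the secretory pathway; its probes are annotated to chromosome 5 of mm9. Its probe A_52_P583973 ranged from 1.81 to 2.46 in linseed mice (median 2.17) and from 1.92 to 2.28 in palm mice (median 2.05). The difference was 0.051 ± 0.080 (95% interval -0.12 to 0.22; limma adjusted p = 0.880). Probe A_51_P513941 ranged from 0.62 to 1.08 and from 0.61 to 1.09 (medians 0.89 and 0.93). Its difference was -0.011 ± 0.077 (95% interval -0.17 to 0.15; limma adjusted p = 0.980). Both probes overlapped between the diets, and the 95% intervals of both probes together ran from -0.17 to 0.22.

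Lsr encodes the lipolysis-stimulated lipoprotein receptor, which takes up apoB-containing particles in the presence of free fatty acids; its probe lies at chr7:31742848-31742907. Its spot was marked by the image software on 3 linseed and 5 palm arrays and was for that reason not tested. On the unmarked arrays it ranged from 5.41 to 6.03 (n = 5) and from 5.70 to 6.17 (n = 5). None of the unmarked arrays was on slides 4 or 5. With marked spots kept, the ranges were 5.41 to 6.04 (median 5.79) and 5.56 to 6.17 (median 5.89). The diets overlapped, and the difference over all arrays was then -0.071 ± 0.095 (95% interval -0.27 to 0.13; limma adjusted p = 0.847).

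**Figure D3:**
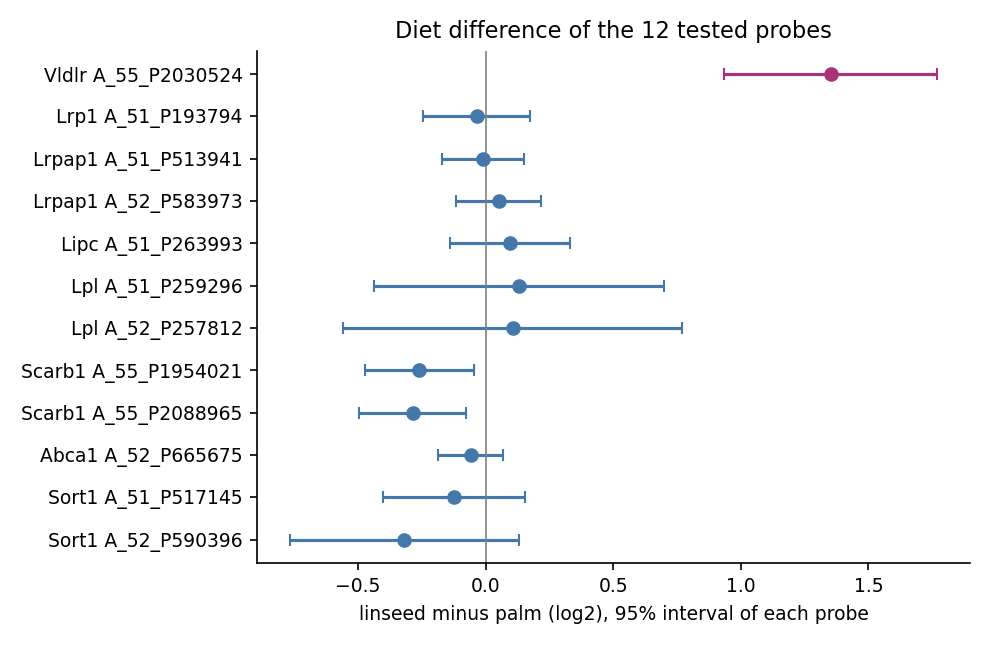
Difference between diets (linseed minus palm, log2 axis) for each of the 12 tested probes, with 95% intervals and the called probe in purple. The interval of Vldlr (0.93 to 1.77) and those of both Scarb1 probes (-0.47 to -0.05 and -0.50 to -0.08) leave out 0 before adjustment; the other 9 include it.

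Of the lipases, Lipc encodes hepatic lipase, which the liver secretes and which acts on remnants and HDL. Its probe is annotated over chr9:70660699-70664375, a span of 3677 bases for a probe of 60, so it is split over the genome. Linseed mice ranged from 0.65 to 1.58 (median 1.33) and palm mice from 0.86 to 1.504 (median 1.19). The ranges overlapped. The difference was 0.095 ± 0.11 (SE; 95% interval -0.14 to 0.33; limma adjusted p = 0.832), and the linseed mean was higher on 4 of 5 slides.

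Lpl encodes lipoprotein lipase, which frees fatty acids from circulating triglyceride and is made mainly in muscle and fat, with little in the adult liver. Probe A_51_P259296 ranged from -1.14 to 1.64 in linseed mice (median 0.12) and from -0.49 to 0.48 in palm mice (median 0.084). Probe A_52_P257812 ranged from -3.64 to -0.58 (median -1.81) and from -2.52 to -1.63 (median -2.01). It was well above background in 7 of 8 linseed mice and in all 10 palm mice, and -3.64 is the value that was not. On both probes the linseed range enclosed the palm range, with 3 and 4 linseed mice above the highest palm mouse. The differences in mean were 0.13 ± 0.27 (95% interval -0.44 to 0.70; limma adjusted p = 0.912) and 0.11 ± 0.32 (95% interval -0.56 to 0.77; limma adjusted p = 0.945).

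The SD of Lpl among linseed mice was 0.86 on the first probe and 1.03 on the second, against 0.30 and 0.31 among palm mice; this difference in spread was not tested. Values of both probes were correlated over the 18 arrays (Pearson r = 0.91). Linseed mouse 6, whose muscle markers summed to 54.9 against at most 1.30 on any other array, was highest on both (1.64 and -0.58). Linseed mouse 5 was lowest on both (-1.14 and -3.64). Its value of -3.64 was not well above background, so it is only a bound, and the SD of 1.03 includes it. The array of linseed mouse 5 also had the fewest probes well above background (17258). Linseed mouse 3 (0.73 and -0.98) and linseed mouse 4 (0.62 and -1.37) were next to the highest.

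The 3 linseed mice highest in Lpl were those in which Adipoq was well above background. Adipoq read -0.49, -3.97 and -0.42 in linseed mice 3, 4 and 6 and -1.39 in palm mouse 10. Palm mouse 10 was not high in Lpl: it read 0.17 on A_51_P259296 and lay within the range of the other palm mice on both probes. The highest palm mouse on A_51_P259296, palm mouse 4 (0.48), did not have Adipoq above background. Plin1, which coats adipocyte lipid droplets, read -1.11 in linseed mouse 3, -2.23 in linseed mouse 6 and -2.51 in palm mouse 10, and was not above background in linseed mouse 4 (-5.30). Cfd, the adipokine adipsin, did not follow the same order: it was highest in linseed mouse 1 (5.17), was 3.74 in linseed mouse 5, the mouse lowest in Lpl, and 1.18 in linseed mouse 4.

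Of 10 adipocyte markers, 5 were above background on at least 8 arrays and Lep on none. None of 4 tested markers was called in the limma fit. At an unadjusted p under 0.05 there were 2, against 10.1% of all tested genes, both higher on linseed oil. These were Cfd at 2.54 (adjusted p = 0.264) and Plin4, a lipid droplet protein, at 1.10 (adjusted p = 0.356). Of the rest, Fabp4 was at 0.38 (adjusted p = 0.736) and Adrb3 lay the other way at -0.18 (adjusted p = 0.779). The summed level of the list was 130 to 254 times the 75th percentile in linseed mice and 101 to 197 in palm mice, of which Car3, which was not among the 4, made up 82.0% to 98.0%. Without Car3 the sums were 7.04 to 45.6 and 3.67 to 16.9. These sums still hold Cfd, which ranged from 0.84 to 5.17 in linseed mice and from -3.04 to 3.34 in palm mice (log2). They were not tested. On the arrays with Adipoq above background, Vldlr read -1.46, -1.59 and -0.78 in linseed mice 3, 4 and 6 and -2.88 in palm mouse 10. Linseed mice 4 and 3 were the lowest linseed mice in Vldlr, and linseed mouse 6 was the highest. The part of muscle and adipocyte RNA in the Lpl and Vldlr values was not tested.

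Lpl changed sign with those arrays. Without linseed mouse 6 the linseed SDs were 0.67 and 0.94, and the differences were -0.08 and -0.09. Without the 4 arrays with Adipoq above background they were -0.36 ± 0.21 (limma adjusted p = 0.612) and -0.48 ± 0.27 (limma adjusted p = 0.605). The linseed mean was higher on 3 of 5 slides by either probe. The sign of the Lpl difference thus depended on which arrays were included.

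**Figure D4:**
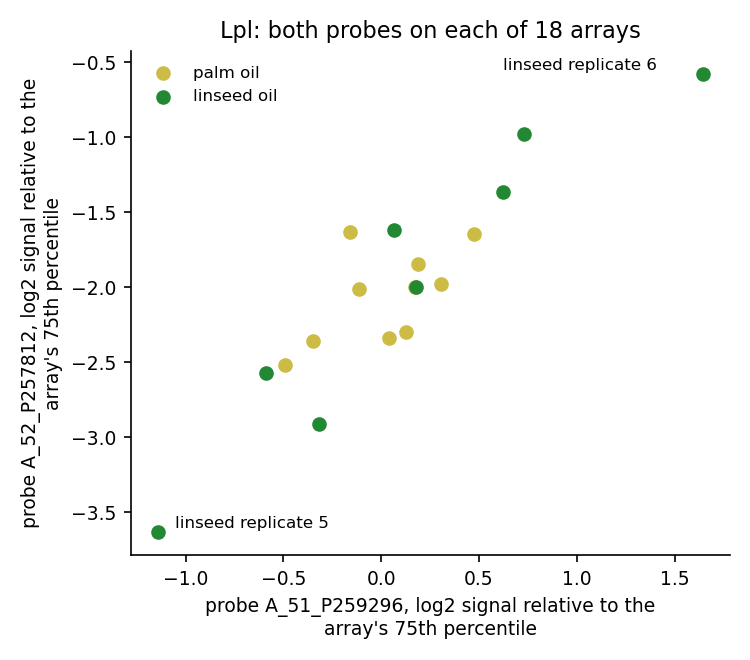
Lpl signal of each of the 18 mice by probe A_51_P259296 (horizontal axis) and probe A_52_P257812 (vertical axis), both log2 relative to the array's 75th percentile and coloured by diet. Linseed mice spread from -1.14 to 1.64 on the horizontal axis, palm mice from -0.49 to 0.48.

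Scarb1 encodes SR-BI, through which hepatocytes take up cholesteryl ester from HDL. Probe A_55_P1954021 ranged from 3.41 to 3.80 in linseed mice (median 3.63) and from 3.60 to 4.3 in palm mice (median 3.84). Probe A_55_P2088965 ranged from 0.22 to 0.75 (median 0.44) and from 0.40 to 1.20 (median 0.71). On both probes the palm mice reached higher while the groups overlapped.

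The means of the brighter Scarb1 probe were 3.63 ± 0.14 (SD, n = 8) and 3.89 ± 0.26 (SD, n = 10). The difference was -0.26 ± 0.10 (SE; 95% interval -0.47 to -0.05; limma adjusted p = 0.339, unadjusted 0.0195). The other probe had means of 0.47 ± 0.18 and 0.76 ± 0.23 and a difference of -0.29 ± 0.10 (95% interval -0.50 to -0.08; limma adjusted p = 0.271, unadjusted 0.0103). On both probes the linseed mean was lower on 5 of 5 slides, by -0.44 to -0.15 and by -0.59 to -0.077. Neither probe passed under any setting tried, and neither changed sign under one. The probes lie at chr5:125757483-125757542 and chr5:125761540-125761599, and a palm level higher by 1.20-fold or 1.22-fold is what their means give.

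**Figure D5:**
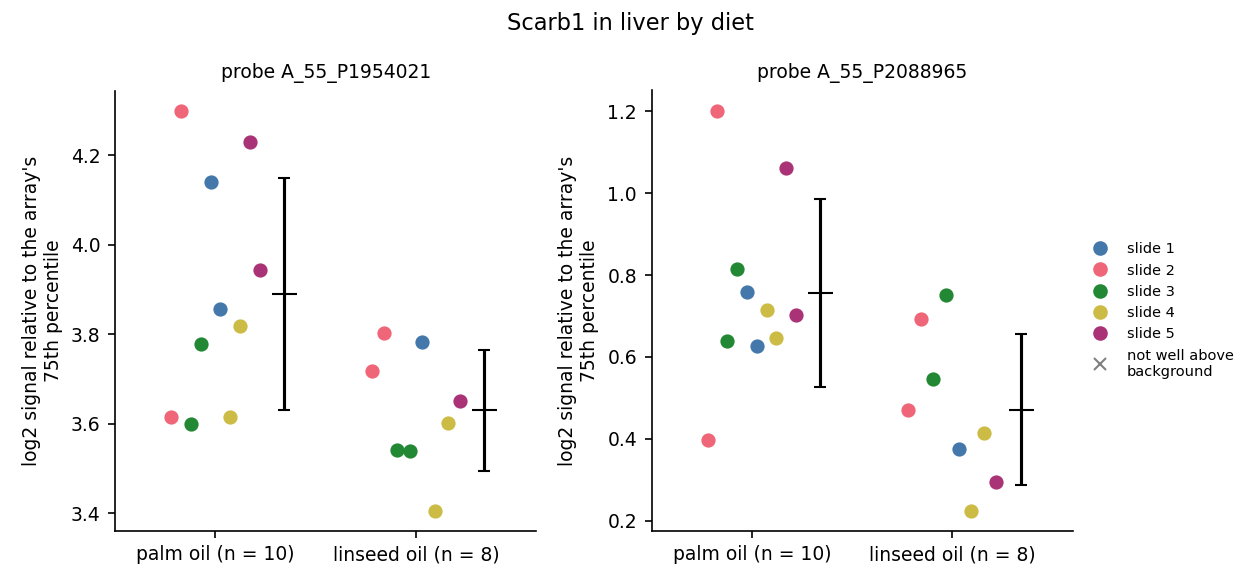
Scarb1 signal of each mouse for both probes, by diet, on a log2 axis relative to the array's 75th percentile (points coloured by slide, bars for mean ± SD). Linseed means were lower (3.63 against 3.89 and 0.47 against 0.76) and the groups overlapped on both probes.

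Abca1 encodes the transporter that loads cholesterol and phospholipid onto apolipoprotein A-I. Its probe lies at chr4:53043944-53044003. Linseed mice ranged from 2.64 to 2.86 (median 2.77) and palm mice from 2.62 to 2.97 (median 2.82). The ranges overlapped. The difference was -0.059 ± 0.061 (SE; 95% interval -0.19 to 0.07; limma adjusted p = 0.800).

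Sort1 encodes sortilin, a sorting receptor that binds apoB-containing particles inside the cell and at its surface. Its probe A_52_P590396, at chr3:108164349-108164408, ranged from -2.49 to -0.98 in linseed mice (median -1.58) and from -1.86 to -0.68 in palm mice (median -1.38). The difference was -0.32 ± 0.21 (95% interval -0.77 to 0.13; limma adjusted p = 0.650). Probe A_51_P517145 was dim, ranging from -3.55 to -2.71 (median -3.24) and from -3.47 to -2.79 (median -3.00). Its difference was -0.12 ± 0.13 (95% interval -0.40 to 0.15; limma adjusted p = 0.807). Both Sort1 probes overlapped between the diets, and the intervals leave room for a change of either sign.

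The wider pathways gave 1 call, each gene being represented by its brightest probe. Of 15951 genes, 118 were called (0.74%), 88 of them higher on linseed oil (0.552%), and the median difference of all genes was -0.0038. Of 23 listed genes of the LDL receptor family and its adaptors, 19 were tested and 1 rose, Vldlr itself, with none lower. Their median difference was -0.035, and 8 of 19 lay above 0. Next to Vldlr by p-value in that family stood Lrp6, a Wnt co-receptor, at 0.24 ± 0.069 (limma adjusted p = 0.133), named after its value was seen.

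Among 16 tested genes of other lipoprotein uptake and heparan sulphate none was called in the limma fit, and 2 of 16 had an unadjusted p under 0.05, near the share of all genes (10.1%). The smallest p was that of Cd36, a fatty acid transporter and scavenger receptor, at 0.71 ± 0.21 (adjusted p = 0.162). Linseed mice ranged from -0.11 to 0.99 (median 0.53) in Cd36 and palm mice from -1.39 to 0.69 (median -0.076), so the diets overlapped. The median difference of that list was 0.0053.

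The triglyceride lipase system, with the lipases, their anchors and their apolipoprotein cofactors, gave 0 calls of 15 tested genes in the limma fit and 0 at an unadjusted p under 0.05. Of the 15, 12 lay above 0, with a median difference of 0.13, where 48.7% of all genes lay above 0. The 6 tested hepatocyte markers had a like median difference of 0.14, with 4 of them above 0. Within the lipase list, Lipg, endothelial lipase, had the smallest p, at 0.71 ± 0.36 (adjusted p = 0.502), and was above background on 6 arrays of each diet. Of 16 tested genes of cholesterol efflux and HDL, none was called in the limma fit and 1, Scarb1, had an unadjusted p under 0.05, again against 10.1% of all genes. The median difference of that list was 0.025.

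The genes most like Vldlr across the 18 arrays were found by Pearson correlation with A_55_P2030524 over 14336 genes measured on all arrays. Arrdc4 (r = 0.89), Cyp3a59 (0.87), Cyp3a41b (0.86), Cyp3a16 (0.86) and Idh2 (0.84) came first, where 95% of genes lay under 0.46. These values hold the diet difference itself: Cyp3a41b and Cyp3a16 were higher on linseed oil by 2.33 and 2.31 (log2), Cyp3a59 by 1.48 and Arrdc4 by 0.39. Idh2 differed by 0.25 and was not called (limma adjusted p = 0.261). The 3 Cyp3a genes, cytochrome P450 enzymes of drug and steroid oxidation, are close copies whose probes may read one another's transcripts.

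Once the means of diet and slide were taken out, other genes came first, among them Exosc8 (r = 0.91), Kynu (0.89), Tlcd1 (0.89) and Srxn1 (0.88), where 95% of genes lay under 0.61. The diet differences of these 4 lay between -0.20 and 0.19 (limma adjusted p from 0.554 to 0.999). The arrays in each correlation share slides and the scaling of each array.

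Markers of other liver cells gave no call beside these genes in the limma fit. Of Kupffer cell markers 0 of 11 tested were called, with 0 at an unadjusted p under 0.05 and summed levels of 63.8 to 152 in linseed mice and 60.3 to 124 in palm mice. Of the lipid-laden macrophage list 0 of 4 were called, and Trem2 alone was lower at an unadjusted p under 0.05 (4.15% of all genes were), at -0.55 (adjusted p = 0.359). The sums of that list were 9.85 to 50.2 against 25.0 to 103, of which Fabp5, not among the 4 tested, made up 66.7% to 96.0%. Without Fabp5 they were 2.96 to 4.50 against 2.38 to 5.01; Gpnmb and Mmp12 were never above background. Of the endothelial list 0 of 10 were called, with sums of 35.7 to 48.3 against 25.7 to 49.3. Their part in the values of Vldlr, Scarb1 and Lpl was not tested.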

How the data were processed

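The members and the gene lists were chosen with earlier results of these data known. Titles of the samples gave the diet. The authors extracted spot intensity with Feature Extraction 9.5.3.1, per the file headers (the submitters' processing notes give 9.5 and also name limma). The processed signal has the background subtracted and no scaling between arrays. The authors' deposited value table gives 18060 probes as log2 values. Its scaling is unknown here, and it served as an alternative. Probe positions are mm9, per the file headers.

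From the processed signal, log2 values were taken and set relative to the 75th percentile of the array over non-control probes. Spots marked as non-uniform or population outliers (238 to 1703 per array) were dropped, saturated spots kept, and repeated spots averaged. A probe entered the test when it stood well above background on 8 or more arrays and had values on 6 or more arrays per diet. Linseed was compared with palm by limma 3.58.1 under R 4.3.3, one model for every probe, without covariates, two-sided, and p-values were adjusted by Benjamini-Hochberg over 19510 probes. The procedure was also run on simulated data with independent noise for each probe and no slide effect. That run cannot show how the procedure behaves where arrays share a slide. Lists take each gene's brightest tested probe. Gene names were updated through a RefSeq table, used for names only. Named genes are the 9 members with all probes, up to 3 called genes of each pathway list or the 1 with the smallest p, and the 5 most like Vldlr by each of 2 correlations; an item that the rule names is not reported here. The labels number replicates in both diets but do not say that a number pairs mice. Correlations of same-numbered deviations ran from -0.22 to 0.49, so the numbers were not taken as pairs. Precision is limited by the number of arrays and by how far a signal lies over background.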

Additional observations from a re-analysis of the deposited data

How the results depend on the processing

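Vldlr kept its direction in all 36 alternatives that gave a value and its call in 35, with differences from 0.49 to 1.44; within slides, which carry no test, slide 5 gave 2.08. The exception is leaving out slides 4 and 5 (1.20, limma adjusted p = 0.160), where 0 member probes were called. That fit had fewer arrays, lacked slide 5 with its difference of 2.08, and asked for values on 4 arrays per diet. The cause of the lost call was not tested. With the replicate number as a block, the difference in Vldlr was 1.26 ± 0.18 (limma adjusted p = 0.043) and 20 probes were called over the array. Of 8 same-numbered pairs, 6 correlated over 0.1, all 6 on a shared slide, and in 2 of 8 the best match was the own number. Number and slide cannot be told apart here. The numbers were not treated as pairs because no label says that they pair mice. The count over all probes, 147, was 74 with normexp, 50 with scaling over unmarked spots, 49 with no filter on dim probes, 253 with slide as a random block (correlation 0.209), 33 without slide 1, 29 without slides 4 and 5 and 65 without the 4 arrays with Adipoq above background, an alternative chosen after seeing the data; leaving out 1 array gave 59 to 184. The share of higher calls was 78.2%, and 89.7% without slides 4 and 5.

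Small differences changed sign. Lrp1 was 0.0093 with normexp, 0.0077 with median scaling and 0.0012 with array weights, and -0.076 to 0.0057 with 1 array left out. Lrpap1 A_51_P513941 was 0.011, 0.032 and 0.022 under the same 3 settings, and -0.042 to 0.026 with 1 array left out. Lpl A_52_P257812 was -0.0071 without slides 4 and 5 and -0.0063 under a fixed block for slide; leaving out 1 array gave -0.092 to 0.34, and -0.082 to 0.32 for A_51_P259296. Without the 4 arrays with Adipoq above background, Lrpap1 A_52_P583973 was -0.020, Lipc -0.039 and the Lpl probes -0.36 and -0.48. None of these passed the threshold under any setting. Counts for the pathway lists were the same under every alternative run on them. Signal over background limits Vldlr, Sort1 A_51_P517145 and Lpl A_52_P257812 most.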
